A study of Saccharomyces cerevisiae x Saccharomyces kudriavzevii with 6 samples.

Results

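The alcohol dehydrogenase genes of yeast were followed in VIN7 and W27, wine yeasts that are hybrids between *S. cerevisiae* and *S. kudriavzevii*, in fermentations at 12°C and at 28°C. The genes were taken by their systematic names as *ADH1* (YOL086C), *ADH2* (YMR303C), *ADH3* (YMR083W), *ADH4* (YGL256W), *ADH5* (YBR145W), *ADH6* (YMR318C), *ADH7* (YCR105W) and *SFA1* (YDL168W). Of these 8 genes, 7 had a row among the 5616 ORFs of the table, and *ADH4* was not analysed here. Of the 7 genes, 6 had a value on all 6 arrays, and *ADH7* had none on 1 array of VIN7.

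Both strains were grown in Tempranillo must and sampled at the start of exponential growth, and each of 3 arrays per strain, named A to C, set RNA of the 12°C fermentation against RNA of the 28°C fermentation in the other dye. Both hybrids are allotriploid. According to earlier work that the paper draws on, VIN7 lacks *S. kudriavzevii* chromosome III and parts of IV and VII, and W27 lacks parts of IV, IX and XV. Systematic names place *ADH7* on chromosome III, *SFA1* on IV and *ADH1* on XV, and whether *SFA1* and *ADH1* lie within the missing parts was not looked up here. The 12°C sample carried Cy5 except on VIN7 C, which had the dyes the other way round, so that in W27 an effect of dye and one of temperature cannot be told apart. The Methods speak of 2 fermentations per strain, 3 samples from each, and 3 independent hybridizations. The sample titles name replicates A to C without saying which fermentation each came from. The tests thus measure the spread between arrays, which may be technical in part.

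Alcohol dehydrogenases interconvert alcohols and aldehydes or ketones with a nicotinamide cofactor. In fermenting yeast, pyruvate decarboxylase splits pyruvate into acetaldehyde and carbon dioxide, and Adh1p then reduces acetaldehyde to ethanol and returns the NADH of glycolysis to NAD+. The family also holds an enzyme that burns ethanol again once sugar is gone (Adh2p), a mitochondrial enzyme (Adh3p), a minor enzyme of ethanol formation (Adh5p), NADPH-dependent enzymes that act on branched and aromatic aldehydes (Adh6p and Adh7p), and an enzyme that handles formaldehyde bound to glutathione and long-chain alcohols (Sfa1p). The first 4 of these, Adh1p, Adh2p, Adh3p and Adh5p, are close relatives. The array carries PCR-amplified ORFs of strain S288c, so cDNA of one of them can bind the spot of another, and each spot reads the *S. cerevisiae* and *S. kudriavzevii* alleles together.

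Values are log2 ratios of 12°C over 28°C, so that 1 stands for a 2-fold higher signal at 12°C. The arrays held between 3800 and 5565 values, with medians between -0.11 and 0.083, and SDs over genes between 0.39 (VIN7 C) and 1.71 (VIN7 B). W27 A stood apart from the other arrays. Over genes, its r was -0.137 against W27 B and -0.186 against W27 C, which between them reached 0.795. For the dye-swapped VIN7 C, r was 0.369 against VIN7 A and 0.0553 against VIN7 B. Likeness between arrays did not follow strain throughout. Across strains, the r of VIN7 A reached 0.657 with W27 B and 0.611 with W27 C, but within VIN7 only 0.363 with VIN7 B. The r of VIN7 C with these W27 arrays was lower, at 0.0723 and 0.0928. Directions were kept as deposited, and results that rest on W27 A, VIN7 B or VIN7 C are given without them or with the sign turned.

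The 4 closely related genes *ADH1*, *ADH2*, *ADH3* and *ADH5* were below 0 in 11 of 12 values in VIN7 and above 0 in 12 of 12 values in W27. *SFA1* showed the opposite arrangement, and *ADH6* and *ADH7* varied in sign within a strain. These signs are those of the directions deposited, W27 A and VIN7 C included. The 12 values of each strain come from 3 arrays and from spots that can share cDNA, so they are not separate observations. Of all genes, between 48.7% and 51.8% were above 0 on the VIN7 arrays and between 47.1% and 53.2% on the W27 arrays. No alcohol dehydrogenase passed a false discovery rate of 5% by limma in VIN7, in W27 or between them with all arrays as deposited, and neither did any other gene (0% of 5100, 4894 and 4670 genes tested). At an unadjusted p under 0.05, limma gave 0 of 7 alcohol dehydrogenases in VIN7 (5.47% of all genes), 2 of 7 in W27 (7.27%) and 3 of 7 between the strains (3.15%).

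**Figure D1:**
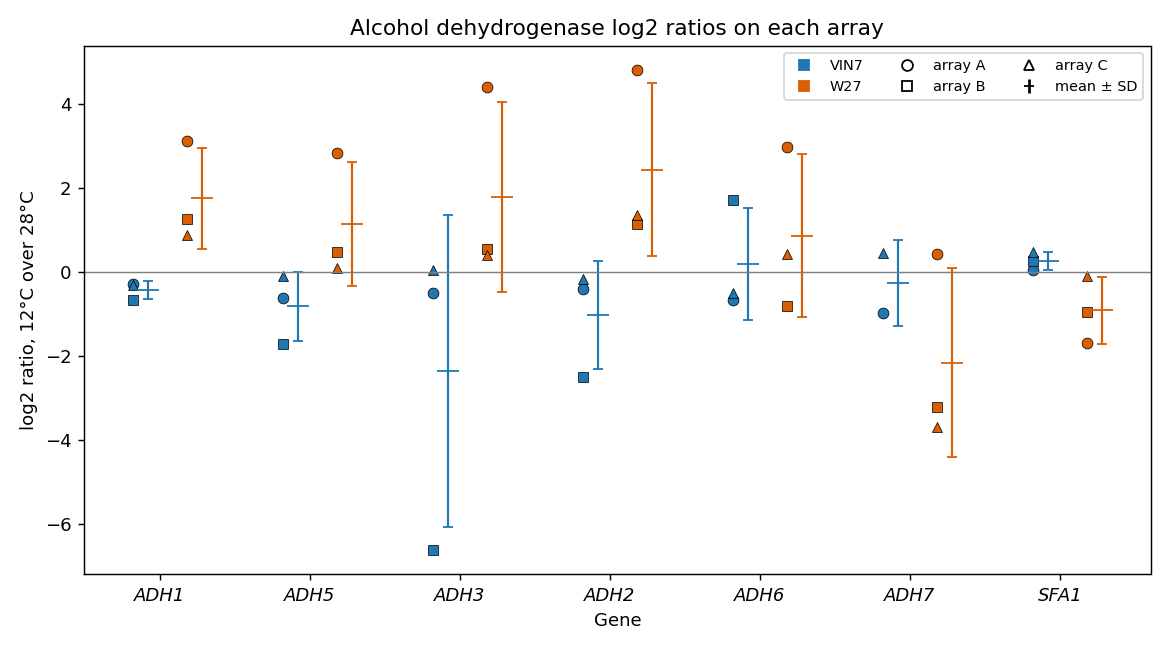
Each point is the log2 ratio of 12°C over 28°C of 1 gene on 1 array (circle, A; square, B; triangle, C), blue for VIN7 and orange for W27, with the mean ± SD over arrays as a bar beside the points. *ADH1*, *ADH5*, *ADH3* and *ADH2* lie above 0 on every W27 array, and W27 A is the highest W27 array for 6 of the 7 genes.

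*ADH1*, the main enzyme of ethanol formation, had log2 ratios of -0.29 (array A), -0.66 (B) and -0.29 (C) in VIN7. In W27 they were 3.12 (A), 1.27 (B) and 0.89 (C). The strains did not overlap, and the dye-swapped VIN7 C gave nearly the value of VIN7 A. The VIN7 mean was -0.41 ± 0.22 (SD, n = 3, adjusted p = 0.612 by limma), a ratio of 0.751, and its range over the arrays was 0.38. The W27 mean was 1.76 ± 1.19 (SD, n = 3, adjusted p = 0.661 by limma), or 3.39-fold, with W27 A the highest by far. Without W27 A the W27 mean was 1.08 and the adjusted p by limma 0.0101 (0.00429 to 1 over all settings tried). In this setting 39.1% of all genes were called, 19.5% as higher and 19.6% as lower, and *ADH1*, *ADH2* and *ADH7* were the 3 of 7 alcohol dehydrogenases among them. The same 3 were called with weighted arrays, beside 35.6% of all genes. When W27 A was turned in sign, *ADH1*, *ADH2*, *ADH3* and *ADH5* had W27 means below 0, at -0.32, -0.77, -1.15 and -0.75.

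*ADH5*, which contributes to ethanol formation when Adh1p is missing, followed the signs of *ADH1*. VIN7 gave -0.61 (A), -1.71 (B) and -0.10 (C), and W27 gave 2.83 (A), 0.49 (B) and 0.11 (C). The strains did not overlap, but VIN7 C and W27 C lay close to each other. The means were -0.80 ± 0.82 in VIN7 (SD, n = 3, adjusted p = 0.612 by limma) and 1.15 ± 1.48 in W27 (SD, n = 3, adjusted p = 0.712 by limma). Without VIN7 B its VIN7 mean was -0.35. When W27 A was left out its W27 mean was 0.30, so most of its W27 mean came from that array.

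*ADH3* codes for the mitochondrial enzyme, which takes part in passing reducing equivalents across the inner membrane. Its log2 ratios in VIN7 were -0.50 (A), -6.61 (B) and 0.07 (C), and those in W27 were 4.41 (A), 0.55 (B) and 0.41 (C). VIN7 B and W27 A held the extreme values, at 0.184% and 99.7% of genes below them on their arrays, while the other 4 arrays lay between -0.50 and 0.55. In VIN7 the mean was -2.35 ± 3.71 (SD, n = 3, limma adjusted p = 0.612), and -0.21 when VIN7 B was left out. In W27 the mean was 1.79 ± 2.27 (SD, n = 3, limma adjusted p = 0.699), and 0.48 when W27 A was left out.

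*ADH2* codes for the enzyme that oxidizes ethanol to acetaldehyde and is repressed by glucose. Its VIN7 values were -0.41 (A), -2.49 (B) and -0.15 (C). On the W27 arrays it was at 4.82 (A), 1.16 (B) and 1.36 (C), the highest alcohol dehydrogenase on W27 A and on W27 C. All W27 values thus lay above 1 and all VIN7 values below 0. The VIN7 mean was -1.01 ± 1.28 (SD, n = 3, adjusted p = 0.612 by limma), and -0.28 without VIN7 B. The W27 mean was 2.44 ± 2.06 (SD, n = 3, adjusted p = 0.661 by limma), or 5.44-fold, and 1.26 without W27 A (adjusted p = 0.00465 by limma, within 0.00218 to 0.786 over the alternatives). The spots of *ADH1* and *ADH2* share much of their sequence, so a value of one can hold signal of the other. The difference *ADH2* minus *ADH1* was -0.12, -1.82 and 0.14 on the VIN7 arrays and 1.70, -0.11 and 0.47 on the W27 arrays, which overlapped.

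*ADH6* and *ADH7* code for the NADPH-dependent enzymes, which reduce aldehydes of the fusel alcohol pathway and aromatic aldehydes. *ADH6* was at -0.66 (A), 1.73 (B) and -0.49 (C) in VIN7, and at 2.99 (A), -0.81 (B) and 0.43 (C) in W27. Its values overlapped between the strains and crossed 0 within each. The means were 0.19 ± 1.33 in VIN7 (SD, n = 3, adjusted p = 0.881 by limma) and 0.87 ± 1.94 in W27 (SD, n = 3, adjusted p = 0.783 by limma). They turned to -0.57 without VIN7 B and to -0.19 without W27 A, so the sign of each mean rested on 1 array.

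*ADH7* had values on VIN7 A (-0.97) and VIN7 C (0.47) but none on VIN7 B. The W27 values were 0.44 (A), -3.21 (B) and -3.68 (C). On the last 2 of these arrays it had the lowest log2 ratio of the alcohol dehydrogenases, with 0.754% and 0.126% of all genes below it, whereas on W27 A 64.0% of genes lay below it. The W27 mean was -2.15 ± 2.26 (SD, n = 3, limma adjusted p = 0.661). When W27 A was left out it was -3.44, with an adjusted p of 3.88e-04 by limma (3.69e-07 to 1 over the alternatives), beside 19.6% of all genes called lower. The VIN7 mean was -0.25 ± 1.02 (SD, n = 2, adjusted p = 0.837 by limma). VIN7 is said to hold no *S. kudriavzevii* copy of chromosome III, which is not among those listed as lost in part from W27, and the part of allele content in the *ADH7* values was not tested.

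*SFA1* codes for the bifunctional formaldehyde and long-chain alcohol dehydrogenase. VIN7 gave 0.07 (A), 0.28 (B) and 0.49 (C), and W27 gave -1.69 (A), -0.94 (B) and -0.09 (C). The strains did not overlap, although VIN7 A and W27 C both lay close to 0. The means were 0.28 ± 0.21 in VIN7 (SD, n = 3, adjusted p = 0.665 by limma) and -0.90 ± 0.80 in W27 (SD, n = 3, adjusted p = 0.711 by limma). The W27 mean was -0.51 when W27 A was left out. On W27 A it was the only alcohol dehydrogenase below 0.

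The family was then set against all genes of each array. The share of alcohol dehydrogenases above 0 in VIN7 was 1 of 7 (A), 2 of 6 (B) and 3 of 7 (C), where 49.4%, 51.8% and 48.7% of all genes were above 0. It was 6 of 7 on W27 A, 4 of 7 on W27 B and 5 of 7 on W27 C, where the shares of all genes were 47.1%, 47.6% and 53.2%. The median over the family was -0.49, -1.19 and -0.10 on the VIN7 arrays and 2.99, 0.49 and 0.41 on the W27 arrays. W27 A placed the family much further from 0 than W27 B and W27 C did. On W27 A, *ADH2* (99.9%), *ADH3* (99.7%) and *ADH1* (97.2%) lay above nearly all genes. On W27 B and W27 C, *ADH1* lay above 92.2% and 80.5% of genes, and *ADH2* above 90.2% and 91.2%. In VIN7, *ADH1* lay above 34.3% (A), 31.1% (B) and 21.3% (C) of genes, within the lower part of the table but not at its edge.

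**Figure D2:**
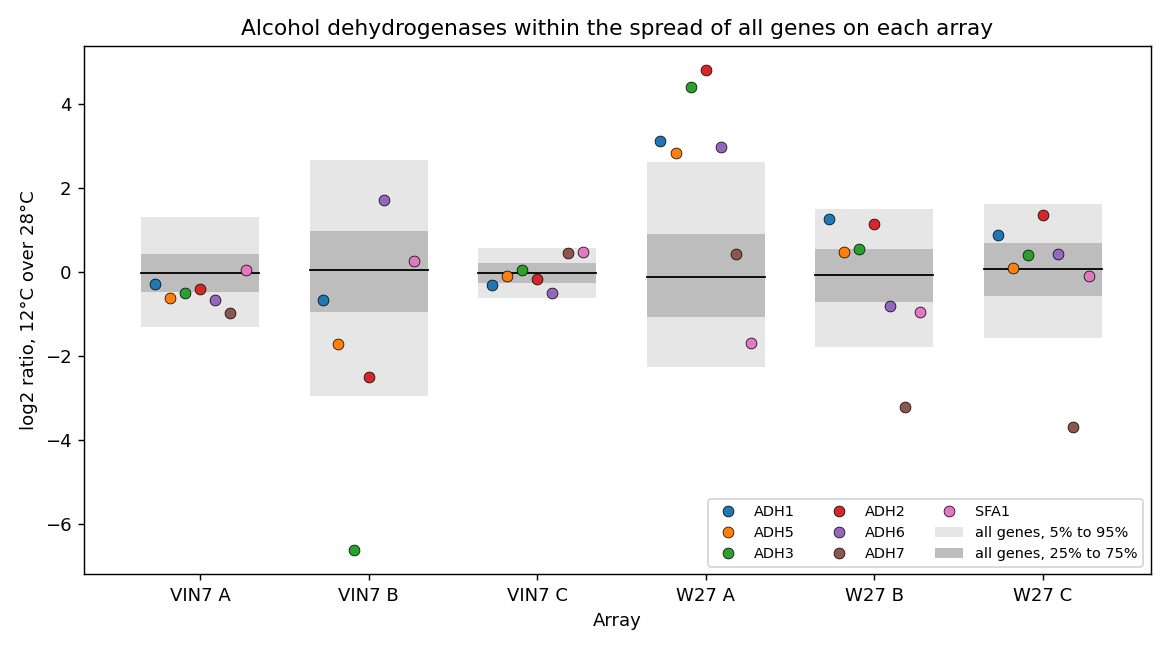
Log2 ratios of the 7 alcohol dehydrogenases (coloured points) on each array, over the range of all genes on that array (light bar, 5% to 95%; dark bar, 25% to 75%; line, median). *ADH1*, *ADH2*, *ADH3*, *ADH5* and *ADH6* lie above the light bar on W27 A, *ADH7* lies below it on W27 B and W27 C, and *ADH3* lies below it on VIN7 B.

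By the study's measure of the median over replicates, no alcohol dehydrogenase reached 2-fold in VIN7 (0 of 7, with 9.8% of all genes past it). In W27, *ADH1* (1.27) and *ADH2* (1.36) reached it upwards (2 of 7, against 10.3% of all genes) and *ADH7* (-3.21) downwards (1 of 7, against 10.8%). Only *ADH7* passed a log2 ratio of 2 in size (2.57% of all genes in either direction). Above 0 on all 3 W27 arrays were *ADH1*, *ADH2*, *ADH3* and *ADH5*, 4 of 7 against 13.0% of all genes, and with W27 A turned the count was 0 of 7 (24.7%). Below 0 on all 3 VIN7 arrays were *ADH1*, *ADH2* and *ADH5*, 3 of 6 against 16.2%, and with VIN7 C turned the count was 1 of 6, *ADH3* (10.7%). *SFA1* was above 0 on all 3 VIN7 arrays (1 of 6, against 24.4%) and below 0 on all 3 W27 arrays (1 of 7, against 18.8%). Genes with the same sign on all 3 arrays lose it by construction when 1 of these arrays is turned. Since the spots of *ADH1*, *ADH2*, *ADH3* and *ADH5* can share cDNA, the counts are not counts of separate events.

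The hybrids were compared directly as W27 minus VIN7. The difference was 2.17 for *ADH1* (95% interval 0.60 to 3.74), 1.95 for *ADH5* (0.02 to 3.88), 4.14 for *ADH3* (-0.14 to 8.42) and 3.46 for *ADH2* (0.91 to 6.01). It was -1.18 for *SFA1* (-2.51 to 0.15), -1.90 for *ADH7* (-4.96 to 1.17) and 0.68 for *ADH6* (-1.81 to 3.16). The intervals are for each gene alone. *ADH3* rested mostly on VIN7 B and W27 A, with a difference of 2.01 without VIN7 B and 0.70 with both arrays dropped. With both dropped the difference was 1.37 for *ADH1*, 1.53 for *ADH2*, 0.65 for *ADH5*, 0.38 for *ADH6*, -3.19 for *ADH7* and -0.79 for *SFA1*. After adjustment over all 4670 genes none passed (adjusted p = 0.893 by limma for 6 of them and 0.918 for *ADH6*). The median of the 7 differences was 1.95, against -0.02 over all genes. The intervals of *ADH3*, *ADH6*, *ADH7* and *SFA1* hold 0 and reach beyond 2-fold, so these data do not show those genes to respond alike in the strains.

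**Figure D3:**
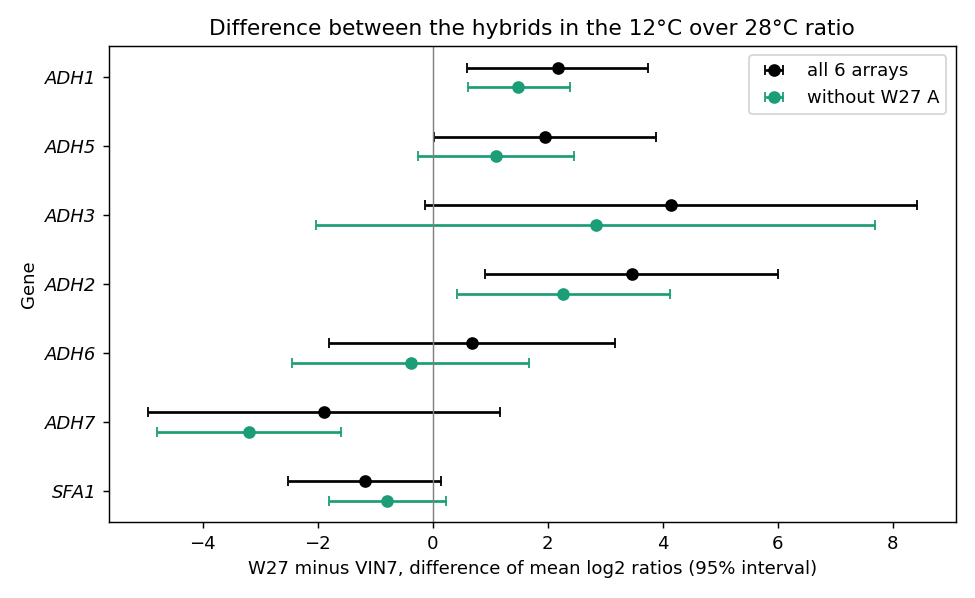
Points are W27 minus VIN7 differences of the mean log2 ratios of each gene, and bars their 95% intervals from the limma fit, with all 6 arrays (black) and without W27 A (green). *ADH1* and *ADH2* keep intervals above 0 without W27 A, whereas that of *ADH5* then reaches below 0 and that of *ADH7* lies wholly below 0.

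No overlap between the strains was seen for 5 of the 6 alcohol dehydrogenases with 6 values, against 15.0% of the 2674 genes measured on all arrays. *ADH1*, *ADH2*, *ADH3* and *ADH5* had every W27 array above every VIN7 array (4 of 6, against 5.16% of genes), and *SFA1* the reverse (9.87%). Opposite signs on all arrays of both strains were found for *ADH1*, *ADH2*, *ADH5* and *SFA1*, 4 of 6 against 4.67% of genes. These counts depended on the directions of the doubted arrays. For the opposite signs this holds by construction, since a gene that has them loses them when 1 array is turned. With VIN7 C turned in sign, 4 of 6 had no overlap (8.94% of genes) and 1 of 6, *ADH3*, had opposite signs (0.935%). With W27 A turned in sign, 0 of 6 were free of overlap (15.3%) and 0 of 6 had opposite signs (2.69%).

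Without W27 A the difference was 1.49 for *ADH1* (95% interval 0.61 to 2.38), 2.27 for *ADH2* (0.42 to 4.12), 1.10 for *ADH5*, 2.83 for *ADH3*, -0.38 for *ADH6*, -3.19 for *ADH7* (-4.79 to -1.59) and -0.79 for *SFA1*. None passed over all genes (smallest adjusted p = 0.536 by limma). With the arrays weighted by their estimated precision, *ADH7* was the one alcohol dehydrogenase called between the strains, at -2.85 (adjusted p = 0.0465 by limma, the lowest of a range up to 0.992 over the alternatives), beside 0.621% of all genes called lower in W27. *ADH7* had only 2 VIN7 values in these fits, -0.97 (A) and 0.47 (C), which differed in sign. Without W27 A, its difference therefore set VIN7 A and C against W27 B and C. When W27 was fitted alone, W27 A had a weight of 0.158 and W27 B of 2.94. With W27 A turned, the differences of *ADH1*, *ADH2* and *ADH5* were 0.09, 0.25 and 0.06.

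The step just before the alcohol dehydrogenases is catalysed by the pyruvate decarboxylases. *PDC1*, *PDC5* and *PDC6*, which the study picked as responding genes from these same arrays, were above 0 in 18 of 18 values in the directions deposited. These values come from 6 arrays and are not separate observations. *ADH1* differed from them in sign on the VIN7 arrays only, since it too was above 0 on every W27 array. A difference between spots of the same array does not depend on how that array was centred, so *PDC1* minus *ADH1* was taken on each array after the values were seen. It was 2.55, 3.15 and 2.04 on the VIN7 arrays, and 0.09, 1.07 and 1.94 on those of W27. *PDC1* lay above *ADH1* on all 6 arrays, and the strains did not overlap, although VIN7 C and W27 C lay close. The mean was 2.58 ± 0.56 in VIN7 and 1.03 ± 0.92 in W27 (SD, n = 3 each), a difference of -1.55 (two-sided exact permutation test, p = 0.1, the smallest that 3 against 3 arrays allow). Both the order and the lack of overlap depended on the directions kept, since *PDC1* minus *ADH1* becomes -0.09 on W27 A or -2.04 on VIN7 C when that array is turned. The lack of overlap also depended on the scale of each array, and the permutation test used unscaled differences. In SDs from the array median, *PDC1* and *ADH1* were at 1.43 and -0.42 on VIN7 B, and at 2.74 and 0.81 on W27 C. In these units the gap was wider on W27 C than on VIN7 B, so the strains overlapped.

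**Figure D4:**
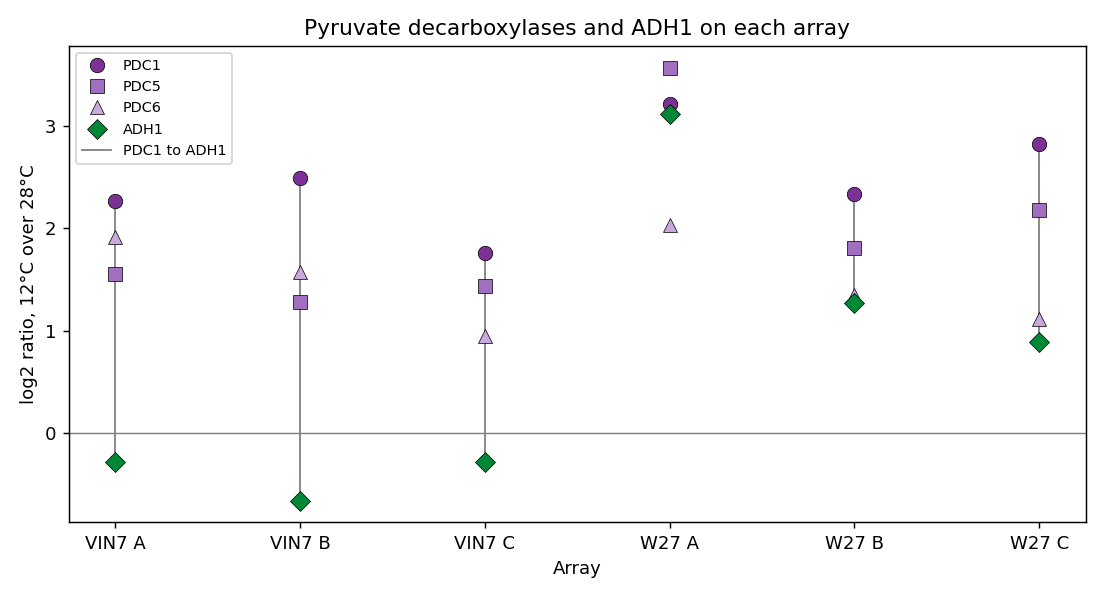
Log2 ratios of 12°C over 28°C on each array for *PDC1*, *PDC5* and *PDC6* (violet) and *ADH1* (green diamond), with a grey line from *PDC1* to *ADH1*. The line is 2.04 to 3.15 long on the VIN7 arrays and 0.09 to 1.94 long on the W27 arrays.

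Likeness of pattern was measured over the 6 arrays as the mean absolute difference of the log2 ratios, each array divided by its SD, among the 2674 genes with 6 values. Within the family, *ADH1* was the 4th nearest gene to *ADH2* and *ADH2* the 45th nearest to *ADH1* of 2673 genes, while *ADH5* was the 41st nearest to *ADH1*. Seen from *ADH3*, *ADH5* and *ADH2* were the 9th and 10th nearest, whereas *ADH3* itself was at rank 1172 from *ADH1*, 599 from *ADH5* and 36 from *ADH2*. From *ADH1*, *ADH6* was at rank 345 and *SFA1* at rank 2282, so by this measure *ADH3* was farther from *ADH1* than *ADH6* was. That order leaned on VIN7 B, where *ADH3* minus *ADH1* was -5.95, against -0.71 (W27 B) to 1.29 (W27 A) on the other arrays. By Pearson r over the 6 arrays the order was reversed, at 0.811 for *ADH3* and 0.528 for *ADH6*. Ranks without VIN7 B are not given here. The nearest ORFs to *ADH1* were YKL060C (0.333 SD) and YKL157W (0.334 SD), and the nearest to *SFA1* were YDR100W (0.182 SD) and YMR206W (0.198 SD), whose names no source used here gives. These distances describe 6 arrays.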

How the data were processed

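RNA of the hybrids VIN7 and W27 was compared between 12°C and 28°C fermentations on 3 arrays of each strain. The authors read the spots with GenePix with a background correction, used Acuity to normalize arrays, to remove spots by flag and to correct for print tips, and deposited 1 log2 ratio per ORF and array. The exact centring is not known and spot intensities were not used here. Array columns were taken by sample, and 0 were left unused. Each strain's mean was tested against 0, and W27 against VIN7, with limma 3.58.1 in R 4.3.3 over all genes with at least 2 values per strain, with Benjamini-Hochberg adjustment at 0.05. The test stands in place of the SAM test that the study names. The models were also run on simulated noise, independent between arrays, with a shift added to some genes. That simulation lacks the correlations between the real arrays, so it cannot vouch for calls made here. The alternatives were centring, scaling, complete values, 1 joint model, array weights, a dye term, a replicate block, leaving out arrays, turned signs, the median, and a higher threshold. Dropping VIN7 B together with W27 A was added after the data were seen. The members and lists were chosen with earlier results of these data known. The genes named are the 8 members, pathway genes and the genes most alike to each member. Of 23 pathway genes listed, 20 are left out because no source used here pairs their names with ORFs.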

Additional observations from a re-analysis of the deposited data

Results flagged for a closer look

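The 4 alcohol dehydrogenases named here stood out because every VIN7 array lay on one side of 0 and every W27 array on the other. The W27 minus VIN7 difference was 2.17 for *ADH1*, 1.95 for *ADH5*, 3.46 for *ADH2* and -1.18 for *SFA1*. The difference itself was tested by limma and passed for none of them over all genes (adjusted p = 0.893 for each, and between 0.0976 and 0.992 over the alternatives for *ADH1*, which had the lowest of the 4). Turning the sign of W27 A or of VIN7 C takes the opposite signs from all 4 genes by construction, so it does not test this pattern.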

How the results depend on the processing

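The count of alcohol dehydrogenases called by limma stayed at 0 in VIN7 under every alternative. In W27 it was 0 with all arrays, 3 with array weights and between 0 and 3 on leaving out 1 array, with the 3 (*ADH1*, *ADH2* and *ADH7*) found without W27 A. Between the strains it was 0, 1 (*ADH7*) with array weights, 0 with a dye term, 0 on leaving out any 1 array and 0 with VIN7 B and W27 A both dropped. Only VIN7 C has the swapped dye, so the difference of *ADH1* was 2.235 both with a dye term and without VIN7 C. The dye term is thus no separate check. The replicate letters as a block also gave 0 calls (smallest adjusted p = 0.984 by limma). Deviations from the strain means correlated at -0.112, 0.108 and -0.259 for letters A, B and C, and between -0.268 and 0.287 for unlike letters. Deviations within a strain sum to 0, so these values cannot decide whether the letters pair the arrays. The count with a median of at least 2-fold was 0 in VIN7, and 0 to 3 on leaving out 1 array, and 3 in W27, 3 to 7 on leaving out 1 array and 1 at a log2 ratio of 2.

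Means changed sign as follows. In VIN7, *ADH6* went from 0.19 to -0.34 with a common scale, -0.48 with array weights and -0.49 as a median, *ADH7* to 0.00724 with a common scale, and *SFA1* to -0.049 with VIN7 C turned. In W27 with W27 A turned, the means were -0.32 for *ADH1*, -1.15 for *ADH3*, -0.75 for *ADH5*, -0.77 for *ADH2*, -1.12 for *ADH6* and 0.22 for *SFA1*, and *ADH6* was at -0.19 with array weights. Between the strains *ADH6* was at -1.32 with W27 A turned. On leaving out 1 array *ADH6* ranged from -0.57 to 0.62 in VIN7, -0.19 to 1.71 in W27 and -0.38 to 1.52 between the strains. The cause of these changes was not tested, beyond the turned signs, which change the values by construction. The number of arrays limits the precision.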
